A study of Mus musculus with 11 samples.

Results

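The gene desert upstream of Id2 on mouse chromosome 12 was examined through every ATAC-seq peak that the authors assigned to Id2, Gm17746, Gm29687 or Sox11. These were 41 of the 45508 peaks in the table: 4 assigned to Id2, 22 to Gm17746, 15 to Gm29687 and none to Sox11. The members were chosen by gene name and the locus was selected on measured values, because many of its peaks gain accessibility. This is taken here to mean the change in rppm in population D against population A, so that comparison is given as a description with no p-value. D against C and B against A share libraries with it and are described in the same way. C against B was tested: its estimate uses neither D nor A libraries, but its error comes from a fit over all 11 libraries. The locus was chosen with earlier results of these data known. The rule of choice names no contrast, so C against B may have been part of it. Its p-values and counts are then not free of the choice.

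ATAC-seq measures open chromatin by letting the transposase Tn5 cut and tag accessible DNA. The cells were naive CD4 T cells (CD4+, CD44lo and negative for a Foxp3-RFP reporter) sorted from spleen and lymph nodes of 3 untreated mice, 10000 cells per library. All mice, and so all 4 populations, carried the Tg(Nr4a1-EGFP)GY139Gsat transgene, which makes Nur77-GFP under Nr4a1 regulatory DNA and so reports recent T cell receptor signalling. They also carried the Foxp3tm1Flv targeted mutation, on a C57/BL6 background; ages were not given. Population D was Nur77-GFPhi and Ly6Cneg (n = 3). Population C was Nur77-GFPint and Ly6Cneg (n = 3). Population B was Nur77-GFPint and Ly6C+ (n = 3). Population A was Nur77-GFPlo and Ly6C+ (n = 2, mice 1 and 3). The number of a library is the number of its mouse, so the populations were sorted from shared animals.

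Id2 belongs to the inhibitor of DNA binding family. Its helix-loop-helix domain pairs with E proteins such as E2A, HEB and E2-2, and because Id2 lacks the basic region that contacts DNA, the pair cannot bind E-box sites. In T cells Id2 and its relative Id3 set how much E protein activity remains, and Id2 is known for supporting effector and innate-like cells over follicular helper cells. Sox11 is a SoxC transcription factor best known from the developing nervous system. Gm17746 and Gm29687 are long noncoding RNAs, for which no role is given here.

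In the RefSeq annotation of GRCm38.p6, the assembly also called mm10, Id2 (gene ID 15902) lies at chr12:25093799-25096092 on the minus strand, so higher coordinates are upstream of it. Kidins220, a scaffold protein of neurotrophin and antigen receptor signalling, ends 30.6 kb away on the downstream side. Upstream, the nearer end of the next protein-coding gene of those annotated, Rnf144a, lies 1211 kb away. Between them RefSeq lists no protein-coding gene, and its long noncoding RNAs there include Gm17746 (gene ID 432641, chr12:25129174-25132274) and Gm29687 (gene ID 629481, chr12:26091962-26210505). Sox11 (gene ID 20666, chr12:27334268-27342718) is 2.24 Mb from Id2. The 41 peaks span 1.10 Mb and the last of them is 1.15 Mb short of Sox11. No listed peak lies within 100 kb of Sox11. The authors' annotation calls 37 of the peaks intergenic, 2 intronic (Gm29687), 1 exonic (Id2) and 1 a promoter (Id2), and 31 lie over 100 kb from the start of their assigned gene. The assigned gene of a peak need not be the gene it acts on. The 11 peaks that overlap any RefSeq gene include peaks inside Gm36287, Gm46343 and Gm36723, to which the table assigns none.

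The 250 bases before the starts of Id2 and Sox11 are shown because they are the ends of the locus, the first with an open promoter in every library and the second with no listed peak. Both are read 5′ to 3′ on the minus strand from RefSeq, build GRCm38.p6 (chr12:25096093-25096342 for Id2 and chr12:27342719-27342968 for Sox11), with E-boxes, the sites bound by E proteins, in capitals.
Id2: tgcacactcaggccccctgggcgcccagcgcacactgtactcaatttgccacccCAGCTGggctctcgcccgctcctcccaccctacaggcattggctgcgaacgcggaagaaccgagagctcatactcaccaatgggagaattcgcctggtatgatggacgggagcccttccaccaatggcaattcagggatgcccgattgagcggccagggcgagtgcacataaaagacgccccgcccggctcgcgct
Sox11: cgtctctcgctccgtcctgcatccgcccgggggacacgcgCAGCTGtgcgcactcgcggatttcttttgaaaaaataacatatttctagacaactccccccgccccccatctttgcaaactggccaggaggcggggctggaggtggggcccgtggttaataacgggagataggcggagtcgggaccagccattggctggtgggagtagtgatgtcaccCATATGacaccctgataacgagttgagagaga
Id2's window is 62.8% G or C with 18 CpG and Sox11's is 58.0% with 17 CpG, against medians of 52.4% and 6 over the 32851 promoter windows of the same length in the table. On both strands, an E-box (CANNTG) matched 1 time in the Id2 window and 2 times in that of Sox11, and 66.2% of all windows hold at least 1. CAGCTG, which is one form of it, matched 1 time in each and occurs in 13.0% of all windows. An ETS core (GGAAG) matched 2 times in the Id2 window, none in the Sox11 window, and occurs in 64.1% of windows. The NR4A site AAGGTCA, the type of site bound by Nur77 itself, matched in neither and occurs in 4.08%. A match is a description of letters, not of binding.

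Accessibility is given in rppm, the authors' reads scaled to a common total (RPM). The scaling totals were 2597176 to 36859229 reads, and the number of libraries, not depth alone, limits the comparison. A value of 10 rppm is 26 reads in the shallowest library, D of mouse 1, and 369 in the deepest, D of mouse 3. Log2 changes are limma estimates on log2(rppm + 1) over all 11 libraries and understate ratios at low peaks. A peak is called where limma's adjusted p, by the Benjamini-Hochberg method over all 45508 peaks, is under 0.05. In bulk libraries, more cells with an open site and a more open site per cell cannot be told apart.

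At Id2 itself the chromatin was open to a similar level in all 4 populations. The promoter peak (chr12:25095863-25096633) had 71.6, 53.8 and 51.7 rppm in D, 58.7, 58.3 and 54.0 in C, 63.8, 57.0 and 56.5 in B, and 57.5 and 56.6 in A. The D library of mouse 1 stood above the rest, and the other D libraries were below both A libraries. The log2 change was 0.03 (SE 0.13) in D against A and -0.05 (SE 0.12) in C against B. The peak 0.75 kb inside the gene (chr12:25095010-25095670, in exon 2) averaged 17.5 ± 1.9, 19.1 ± 1.8, 16.6 ± 0.17 and 15.6 ± 2.1 rppm in D, C, B and A (SD). The peak 3.43 kb into the downstream side (chr12:25092249-25093083) averaged 27.2 ± 1.2, 28.7 ± 1.7, 24.2 ± 2.5 and 24.8 ± 0.25 rppm. The smallest, 2.75 kb upstream (chr12:25098678-25098999), had 6.55, 7.85 and 10.7 rppm in D, 10.2, 9.36 and 11.0 in C, 7.80, 6.98 and 10.8 in B, and 6.42 and 8.46 in A. None of these 4 peaks was called in D against A or in C against B. At an unadjusted p under 0.05 by limma, none was higher or lower in D against A (13.6% of all peaks were higher) and 1 was higher in C against B (2.77% of all peaks); with edgeR's quasi-likelihood test, DESeq2 or a term for the mouse, none was called either. Summed over the 4 peaks, accessibility was 112 ± 7.02 rppm in D, 115 ± 2.59 in C, 108 ± 5.91 in B and 105 ± 2.62 in A (SD).

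**Figure D1:**
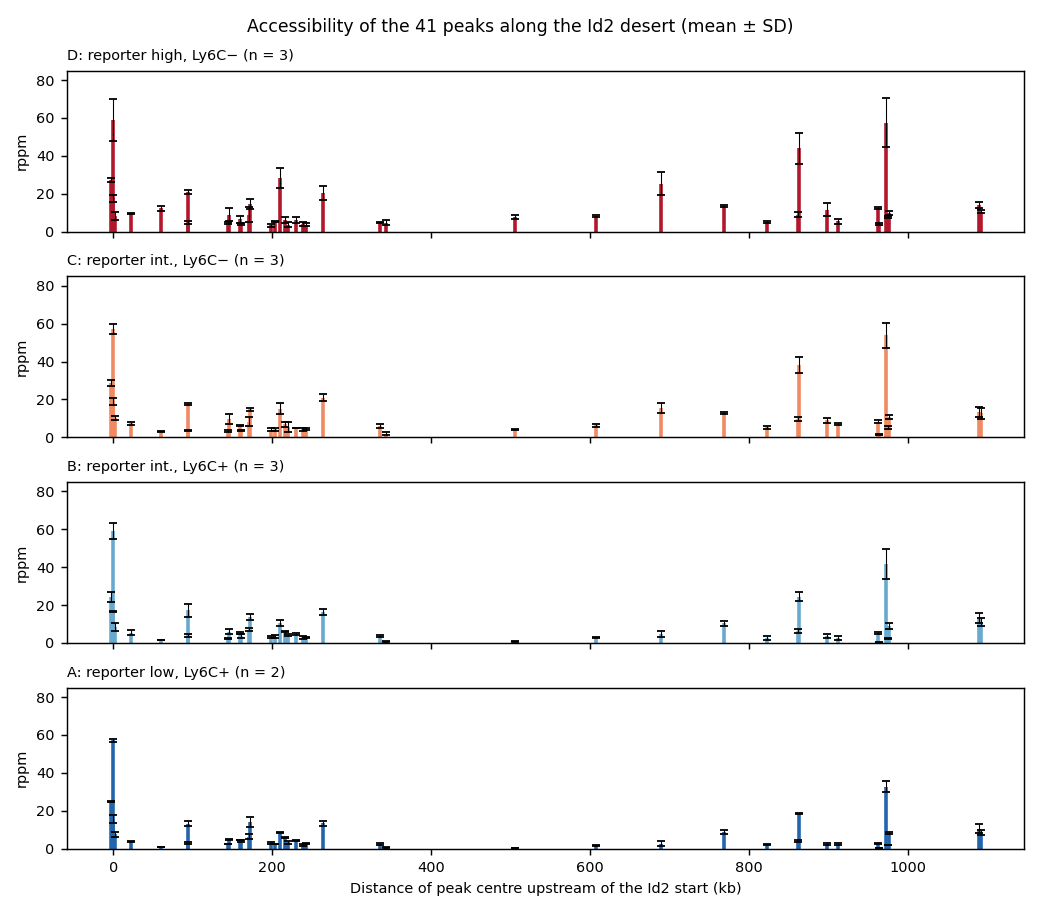
Mean accessibility (rppm, vertical axis, with SD) of the 41 peaks against their distance upstream of the Id2 start in kb (horizontal axis), with 1 panel for each of populations D, C, B and A. The promoter bar at 0 kb averages 59.0, 57.0, 59.1 and 57.1 rppm in D, C, B and A, while bars at 688 kb and 863 kb are tallest in D and shortest in A.

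The desert showed another pattern: 23 of its 37 peaks were called higher in D against A and none lower, while 8.7% of all peaks were called higher and 3.74% lower. No locus peak was lower at an unadjusted p under 0.05 by limma either, where 9.55% of all peaks were, nor called lower by edgeR or DESeq2. This is the contrast taken to have chosen the locus, so nothing is read from the share. The called peaks were 11 of the 22 assigned to Gm17746 and 12 of the 15 assigned to Gm29687, and 18 of the 23 had at least 2 times the mean of A in D. The median log2 change was 0.68 over the 41 peaks and -0.04 over all peaks of the table. It was 0.13 for Id2, 0.61 for Gm17746 and 1.02 for Gm29687. D libraries lay wholly above A libraries at 32 of the 41 peaks, a pattern found at 19.3% of all peaks. The median width was 854 bases for called peaks, against 573 bases for the locus peaks not called and 760 bases for the table. The mean in A was under 3 rppm at 17 of the 41 peaks and at least 10 rppm at 9.

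Summed over the Gm29687 peaks, accessibility was 273, 225 and 218 rppm in D, 222, 213 and 192 in C, 158, 142 and 120 in B, and 114 and 100 in A. D and C overlapped, while every C library was above every B library and every B library above both A libraries. The means were 239 ± 29.9, 209 ± 15.7, 140 ± 19.2 and 107 ± 9.54 rppm, so D had 2.23 times A and C had 1.49 times B. For the Gm17746 peaks the means were 193 ± 16.4, 159 ± 14.6, 125 ± 15.5 and 105 ± 1.81 rppm in D, C, B and A, with D at 1.84 times A and C at 1.27 times B. Mouse 1 gave the highest of the summed values over the 41 peaks in each of the 4 populations, at 605 rppm in D, 516 in C, 414 in B and 320.4 in A. Without the D library of mouse 1, which is also the shallowest, D had 1.62 times the A sum over the 41 peaks, against 1.72 times with it.

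**Figure D2:**
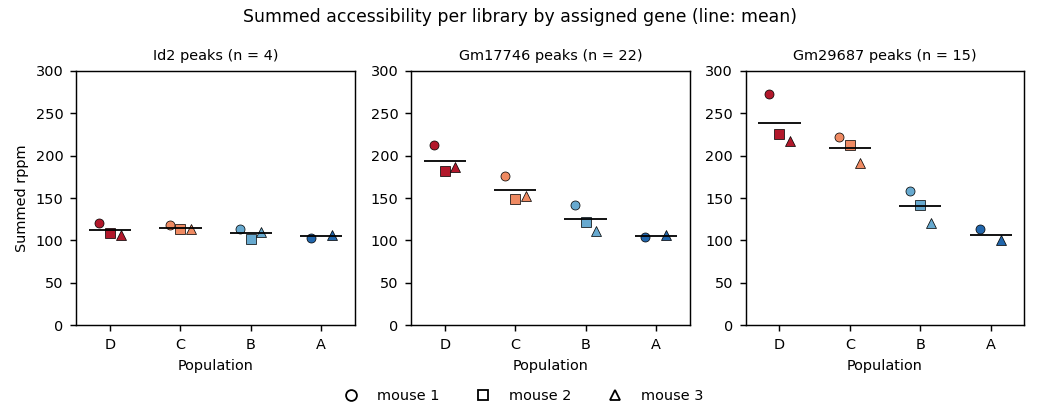
Summed rppm per library (vertical axis) over the peaks assigned to Id2, Gm17746 and Gm29687, 1 panel each, for populations D, C, B and A. Points are libraries, with the mouse as the symbol, and lines are means; the Id2 sums average 105 to 115 rppm while the Gm29687 sums average 239 rppm in D and 107 rppm in A.

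Among the peaks nearest Id2, the one 21.9 kb upstream (chr12:25117581-25118443) had 9.63, 9.31 and 10.0 rppm in D, 7.46, 6.38 and 8.06 in C, 6.79, 4.35 and 4.87 in B, and 3.59 and 3.73 in A. D was above every other library, and C and B libraries overlapped. Its log2 change was 1.19 (SE 0.18) in D against A.

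The peak 59.6 kb upstream, inside the long noncoding RNA gene Gm36287 (chr12:25155301-25156005), stood out by where its change fell. It had 13.9, 11.2 and 12.0 rppm in D, 3.14, 2.88 and 2.81 in C, 1.67, 1.72 and 1.64 in B, and 0.979 and 0.705 in A. D was thus set apart from the other 3 populations, and no populations overlapped. The log2 change was 2.86 (SE 0.16) in D against A, of which 1.76 was the D against C step. In C against B it was 0.56 (SE 0.14), with a limma adjusted p of 0.419. The A values rest on 9 and 7 reads.

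The peak 210.1 kb upstream, inside Gm46343 (chr12:25305747-25306658), had 34.3, 25.6 and 24.6 rppm in D, 18.6, 13.4 and 13.4 in C, 12.5, 9.84 and 9.82 in B, and 8.38 and 8.66 in A. No populations overlapped here either, and D against C was again the largest step, at log2 0.85 of a D against A change of 1.60 (SE 0.18). The peak 343 kb upstream, inside Gm36723 (chr12:25438482-25439253), followed the same order at a lower level, with 4.76 ± 1.2, 1.80 ± 0.77, 0.692 ± 0.12 and 0.528 ± 0.18 rppm in D, C, B and A (SD).

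Some neighbouring peaks in the same stretch had similar values in all 4 populations, and the 2 given here were named for their low change. Others, such as those 144 and 204 kb upstream, were called higher in D against A. The peak 160.3 kb upstream (chr12:25256132-25256615) averaged 3.97 ± 0.35, 3.64 ± 0.41, 3.66 ± 0.99 and 3.75 ± 0.53 rppm in D, C, B and A. The peak 172 kb upstream (chr12:25267403-25268630) averaged 14.6 ± 2.8, 14.8 ± 0.80, 13.6 ± 1.6 and 14.1 ± 2.6 rppm. With the Id2 promoter these had the lowest D against A changes of the locus, 0.07, 0.03 and 0.03.

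**Figure D3:**
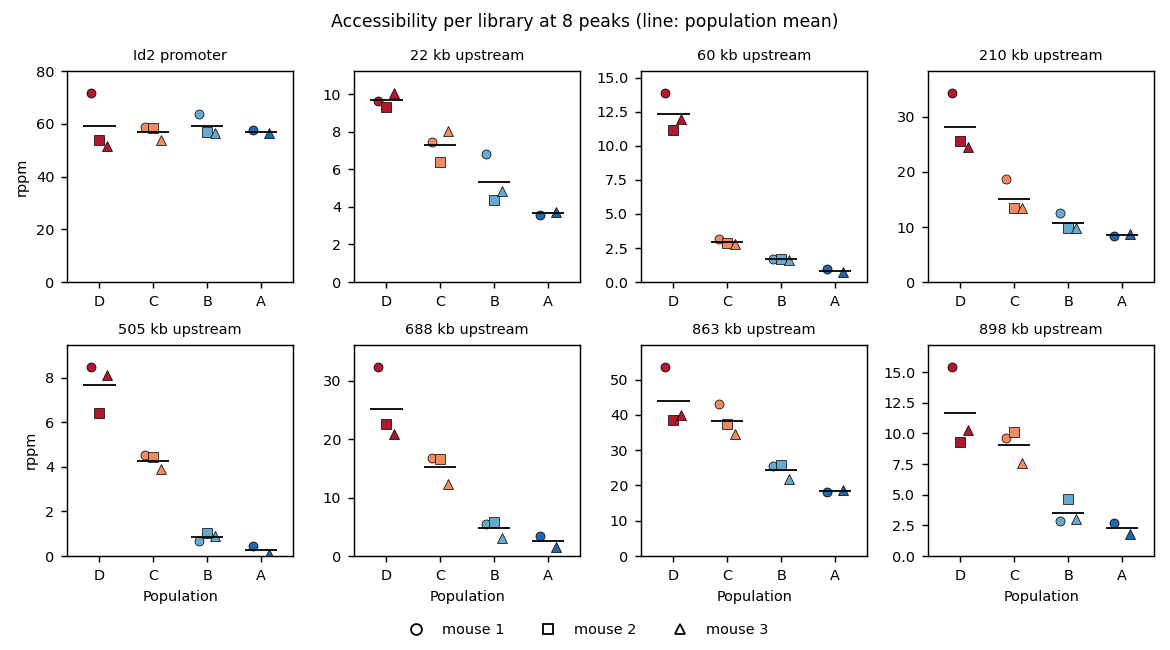
Accessibility (rppm, vertical axis) of each library at 8 peaks named by their distance from the Id2 start, for populations D, C, B and A; symbols are mice and lines are means. At the promoter the populations overlap, at 60 kb the D libraries (11.2 to 13.9 rppm) stand apart from C (2.81 to 3.14 rppm), and at 505 kb the C libraries (3.92 to 4.51 rppm) already stand apart from B (0.668 to 1.03 rppm).

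Farther out, from 505 kb on, most called peaks had their largest step between C and B, the Ly6C- and Ly6C+ populations at the same reporter level. The peak 607 kb upstream (chr12:25702199-25703571) had 8.09, 8.58 and 7.98 rppm in D, 5.50, 7.10 and 6.30 in C, 2.67, 2.86 and 2.31 in B, and 1.52 and 1.71 in A. Every C library was above every B library. The peak 688 kb upstream (chr12:25784164-25785005) had 32.3, 22.5 and 20.9 rppm in D, 16.9, 16.7 and 12.3 in C, 5.57, 5.84 and 3.07 in B, and 3.37 and 1.61 in A. Its D against A change was log2 2.93 (SE 0.27), and its A and B libraries overlapped.

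The 2 strongest desert peaks lie in this stretch. The one 863 kb upstream (chr12:25958311-25959517) had 53.5, 38.7 and 40.0 rppm in D, 43.0, 37.3 and 34.7 in C, 25.6, 25.9 and 21.9 in B, and 18.3 and 18.6 in A. D and C overlapped, and both were above every B and A library. The one 973 kb upstream (chr12:26068030-26069190) had 72.4, 51.0 and 49.0 rppm in D, 60.4, 53.8 and 47.3 in C, 49.7, 41.0 and 34.3 in B, and 34.9 and 30.5 in A. In D and C it was about as high as the Id2 promoter, at 57.5 ± 13 and 53.8 ± 6.6 rppm, while in A it averaged 32.7 ± 3.1 rppm against 57.1 ± 0.68 rppm at the promoter.

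Within the same cluster, the peak 898 kb upstream (chr12:25993988-25994514) averaged 11.7 ± 3.3, 9.09 ± 1.3, 3.53 ± 1.0 and 2.27 ± 0.64 rppm in D, C, B and A. The peak 962 kb upstream (chr12:26057483-26058350) averaged 12.3 ± 0.57, 8.30 ± 0.79, 5.37 ± 0.47 and 2.62 ± 0.14 rppm and had its largest step in B against A, at log2 0.81. The peak 975 kb upstream (chr12:26070726-26071144) averaged 7.74 ± 0.64, 5.01 ± 0.85, 2.33 ± 0.48 and 1.88 ± 0.19 rppm. At 912 kb upstream (chr12:26007506-26008634) C was highest, with 4.24, 6.69 and 5.32 rppm in D, 7.26, 7.20 and 6.33 in C, 2.67, 3.66 and 1.52 in B, and 2.61 and 2.11 in A.

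The other 22 desert peaks showed smaller differences on the whole. They averaged 3.25 to 21.0 rppm in D, 1.48 to 21.0 in C, 0.440 to 17.2 in B and 0.318 to 13.2 in A, with D against A changes of log2 0.08 to 1.96 (median 0.54), and 10 of them were called. In C against B 21 of the 22 were positive, with a median of 0.28. The last peaks of the locus, 1089 and 1092 kb upstream and inside introns of Gm29687, were among those not called. They averaged 14.0 ± 1.7 and 10.6 ± 0.95 rppm in D, 13.5 ± 2.6 and 12.7 ± 2.8 in C, 13.1 ± 2.8 and 11.2 ± 2.1 in B, and 10.6 ± 2.3 and 8.46 ± 1.4 in A (SD).

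Taking the 23 peaks called in D against A, the largest of the 3 neighbouring steps was C against B at 14, D against C at 5 and B against A at 4. Steps were ranked on log2(rppm + 1), which shrinks steps at low values, so a ranking by ratios can differ. The peak 963 kb upstream, at 4.14, 1.48 and 0.440 rppm in D, C and B, is such a case. The 10 of the 12 Gm29687 peaks with C against B as the largest step compare with 4 of the 11 Gm17746 peaks, a split described without a test. Population means descended in the order D, C, B, A at 16 of the 23 and at 20 of all 41 peaks. The mean of C was at or above that of D at 17 of the 41. No share over all peaks was computed for the largest steps or for these orders of means. The 23 were called for D above A, which favours a descending order, so nothing is read from these counts. In D against C, limma called 6 of the 41 peaks higher, where 4.51% of all peaks were called higher and 1.49% lower. D libraries lay wholly above C libraries at 14 of the 41, a pattern at 10.3% of all peaks, and B libraries above A libraries at 16, against 12.3%. In B against A it called none, where 0.0% of all peaks were called, although 10 locus peaks were higher and none lower at an unadjusted p under 0.05 (2.28% and 0.4% of all peaks). None was called by edgeR, DESeq2 (0.0176% of all peaks higher) or with a term for the mouse (0.0461% higher and 0.0132% lower) either.

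**Figure D4:**
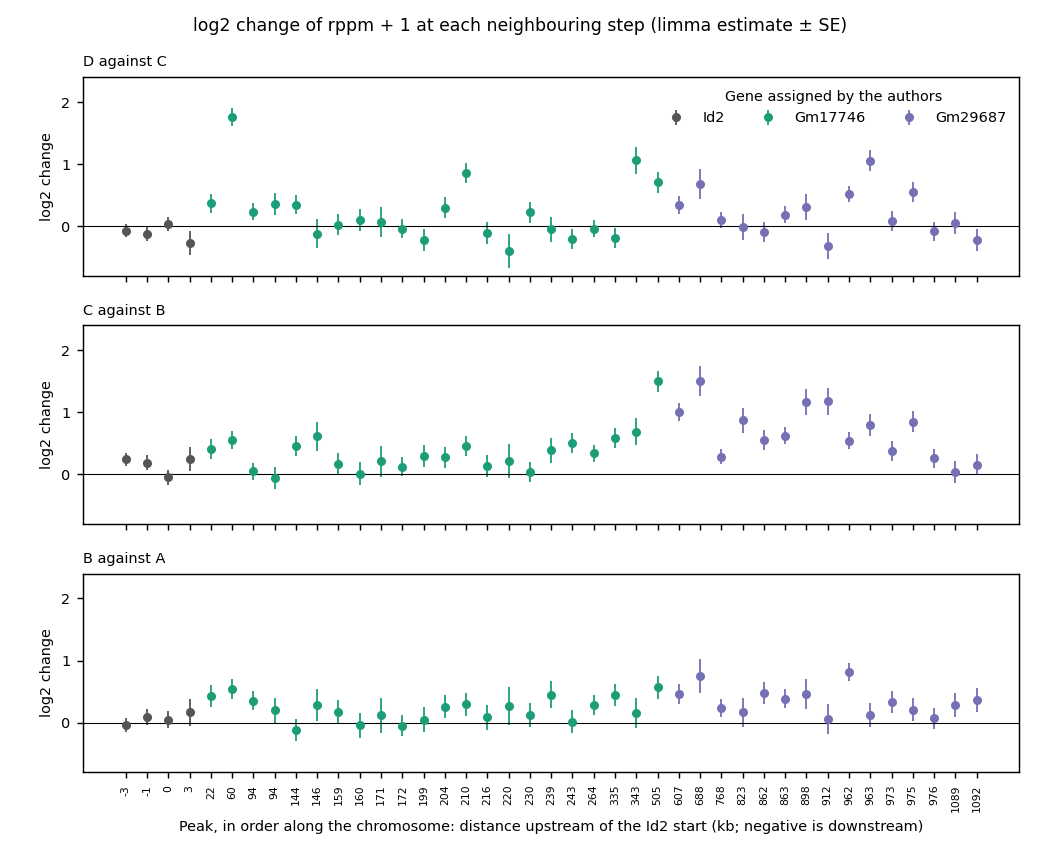
limma log2 change of rppm + 1 (vertical axis, ± SE) of each of the 41 peaks in order along the chromosome (horizontal axis, kb upstream of Id2), for D against C, C against B and B against A. The peak at 60 kb reaches 1.76 in D against C, while in C against B the highest values, 1.50 at 505 kb and 1.51 at 688 kb, lie in the far desert.

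C against B, which sets Ly6C- against Ly6C+ cells at intermediate reporter, gave 1 call in the whole table, 0.0022% of its peaks, and that peak lies in the desert. It is 505 kb upstream of Id2 (chr12:25600650-25601483, assigned to Gm17746, within no RefSeq gene). It had 4.51, 4.42 and 3.92 rppm in C and 0.668, 1.03 and 0.918 rppm in B, from 23, 43 and 138 reads in C and 6, 9 and 23 reads in B. C was higher than B in 3 of 3 mice, with a log2 change of 1.50 (SE 0.17) and a limma adjusted p of 0.0199. Values in D were 8.47, 6.40 and 8.14 rppm, and those in A were 0.435 and 0.101 rppm, from 4 reads and 1 read. Every listed peak of the table had at least 1 rppm in at least 3 libraries. Here the C and D libraries reached that level, while most B and both A libraries did not. The peak is thus listed through its C and D values, which the adjusted p does not take into account. The call was lost when any 1 library of C or B was left out (adjusted p 0.115 to 0.251, with log2 changes of 1.42 to 1.56) and without D replicate 3 (adjusted p 0.0519). It was also lost with quantile normalization (0.140) and with a pseudocount of 5 rppm (0.0583).

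More locus peaks were called when the mouse was a term in the model or when the recovered reads were tested as counts. With the mouse block, 6 of the locus peaks were called higher in C against B, at 505, 607, 688, 863, 898 and 912 kb, where 0.156% of all peaks were called higher. edgeR called 6 (0.127% of all peaks) and DESeq2 called 7 (0.165%). Peaks at 505, 607, 688, 898 and 912 kb were called in all 3 of these fits. Without the mouse term, limma's adjusted p was 0.07 at 607 kb, 0.0954 at 688 kb, 0.162 at 898 and 912 kb, 0.172 at 975 kb and 0.207 at 863 kb. No locus peak was lower in C against B at an unadjusted p under 0.05 by limma, where 1.23% of all peaks were. None was called lower with the mouse block (0.0374% of all peaks), edgeR (0.0198%) or DESeq2 (0.0242%).

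Over the 41 peaks, 39 had a positive C against B change, against 22057 of all 45508. At an unadjusted p under 0.05 by limma, 23 were higher, where 2.77% of all peaks were. C libraries lay wholly above B libraries at 22 peaks, a pattern at 5.73% of all peaks: 11 of 15 for Gm29687, 9 of 22 for Gm17746 and 2 of 4 for Id2. The change was positive at 32 peaks in mouse 1, 38 in mouse 2, 40 in mouse 3 and 31 in all 3. The share over all peaks was not computed per mouse. The median log2 change was 0.37 for the locus, 0.21 for Id2, 0.32 for Gm17746, 0.62 for Gm29687 and -0.00 for the whole table. Peaks of 1 locus share libraries and may open together, so these counts are not independent observations. If this step took part in the choice of the locus, the counts also reflect that choice.

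Few peaks are listed on either side of the locus, and most are annotated within genes or at promoters, unlike the desert peaks. Within 2 Mb below the locus, 1 of 19 peaks was called higher and 2 lower in D against A. Of all peaks, 8.7% were called higher and 3.74% lower. Both lower peaks lie in introns of Kidins220, the gene next to Id2, and averaged 9.58 and 25.2 rppm in D, against 21.2 and 43.9 rppm in A. Within 2 Mb above, none of 7 peaks was called; Rsad2 and Cmpk2, a pair of interferon-induced antiviral genes, had log2 changes of -0.38 and -0.20. Median log2 changes in D against A were -0.01 below and -0.04 above, against 0.68 in the locus and -0.04 over all peaks. In C against B limma called none on either side, where 0.0022% of all peaks were called higher. Counts this small cannot separate the flanks from the shares over all peaks. D against A is also the contrast taken to have chosen the locus. Desert peaks are distal, so peaks of the same kind make a nearer background than the table. Of the 1575 intergenic peaks over 100 kb from a start outside the locus, 16.6% were called higher in D against A with a median log2 change of 0.05. Of the 31 such peaks inside the locus, 20 were called higher, with a median of 0.79. The peak called in C against B is the only one of all 1606 such peaks, or 0.0623%.

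Other genes of the Id and E protein system were compared by list. Of 39 peaks assigned to Id1, Id3, Tcf3 (encoding E2A), Tcf4 (E2-2) and Tcf12 (HEB), 6 were called higher in D against A and none lower, where 8.7% of all peaks were called higher and 3.74% lower, with a median log2 change of -0.01; no peak was assigned to Id4. Id3, which encodes the partner inhibitor, had 3 of its 6 peaks called, all intergenic. The one with the largest change averaged 12.0 ± 0.19 rppm in D, 5.22 ± 0.60 in C, 4.39 ± 0.14 in B and 2.60 ± 1.4 in A. Its C against B change was 0.20 (SE 0.18), with a limma adjusted p of 1.00. Tcf12 had 1 of 12 peaks called, at 1 of its annotated promoters, with 13.5 ± 1.3 rppm in D and 7.54 ± 0.56 in A. A stronger promoter peak of Tcf12 was not called, at 56.2 ± 17 rppm in D and 60.5 ± 9.9 in A. Over the 12 Tcf12 peaks the median log2 change was -0.18, and 2 were positive. Tcf4 had 2 of 16 peaks called. Tcf3 had none of 3 and Id1 none of 2. Of the SoxC genes, Sox4 had 2 of 5 peaks called and Sox12 none of 4. In C against B none of these 48 peaks was called by limma.

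By the distance between centred log2 sums of the 4 populations, the genes closest to the 4 Id2 peaks among 2592 genes with at least 5 peaks were Katnal1, Esr1, Tmsb4x, Mad2l1 and Ankrd12 (root mean square 0.00409 to 0.00985). For the summed desert peaks, a target added after the data were seen, the 5 closest included Endod1, Mir145b, Serp2 and Nt5e (0.0669 to 0.0892). Nt5e, which encodes the ectoenzyme CD73, had summed means of 115.8, 88.4, 63.9 and 58.5 rppm in D, C, B and A.

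Marker genes of the sorted and neighbouring cell types were read from the same table, where 8.7% of all peaks were called higher and 3.74% lower in D against A. CD4 T cell markers (4 of 5 genes with a peak, Trac being without) had 0 of 16 peaks called higher and 2 lower in D against A. Regulatory T cell markers, which Foxp3-RFP sorting should limit, had 14 of 46 called higher and 3 lower, with sums of 672 to 676 rppm in D, 561 to 579 in C, 549 to 556 in B and 540.5 to 553 in A. Follicular helper markers had 14 of 51 higher and none lower (754 to 785, 677 to 692, 649 to 686 and 626 to 663 rppm). Innate-like and innate lymphoid markers, whose cells are known for high Id2, had 3 of 15 higher and 2 lower, with sums of 147 to 169 in D, 138 to 154 in C, 133 to 141 in B and 122 to 142 in A. CD8 and NK markers had 3 of 26 higher and 2 lower, B cell markers 0 of 6, and myeloid markers 2 of 9 higher and 1 lower. No listed peak was assigned to Ms4a1, Pax5, Ncr1, Csf1r or Lyz2. The part of other cells in the desert values was not tested.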

How the data were processed

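The deposited table gives RPM values, called rppm per the file headers, for 45508 peaks in 11 libraries. All 45508 had at least 1 rppm in at least 3 libraries, so a peak low in some populations is listed only where others are higher. The submitters' processing notes name Bowtie, MACS2 and mm10; versions, read filters, peak merging and the scaling total are not given in the sources used here. Each library came from 10000 cells tagmented for 1 h at 37 °C, per the labels. All values (100%) were whole multiples of 1 step within 0.0006 rppm, so whole reads were recovered; the scaling totals were 2597176 to 36859229 reads, with 92.5% to 94.7% in listed peaks. Reads carry no molecular identifiers, so copies of 1 fragment may be included.

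Peaks were taken by the authors' gene names. limma 3.58.1 (R 4.3.3, trend) was fitted to log2(rppm + 1) with 4 population means and no mouse term, two-sided, over all 45508 peaks, with a threshold of 0.05 after Benjamini-Hochberg adjustment. Alternatives were pseudocounts of 0.25 and 5, a mean of at least 5 rppm, median-of-ratios scaling, quantile normalization, the mouse as a block, leaving out libraries, and edgeR 4.0.16 and DESeq2 1.42.0 on recovered reads. On simulated counts over 45508 peaks, limma recovered 67% of changes of log2 1 and 98% of changes of log2 2 in D against A. In C against B it recovered 77% and 100%. The changes were planted only in peaks above a minimum mean, with a fixed dispersion for all peaks and no mouse effect. These shares need not hold for low peaks or for peaks that vary more. The simulation planted 100 changes of each size, the same ones in D and C. Where fewer peaks change, the adjusted threshold is stricter and recovery can be lower. In the real C against B fit, limma called 1 peak higher in the whole table.

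Library numbers mark mice, per the labels. Deviations from population means correlated at 0.183 to 0.556 for 15 pairs from 1 mouse and at -0.433 to 0.203 for 30 pairs from different mice.

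Named peaks were those within 5 kb of a member's start, the 10 with the largest D against A change and a D mean of at least 5 rppm, the 3 with the lowest change, those called in C against B, and the 3 with the highest mean. The peaks at 343 and 912 kb fall outside this rule and were chosen after their values were seen. Members, lists and tests were chosen with earlier results of these data known. Distances run from the RefSeq start of Id2 to peak centres. Sequence under the desert peaks was not used here.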

Additional observations from a re-analysis of the deposited data

Results flagged for a closer look

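The peak 2.75 kb upstream of Id2 had changes of opposite sign in the 2 steps of the reporter, neither of which was called. It was lower in D than in C in all 3 mice (6.55, 7.85 and 10.7 rppm in D, 10.2, 9.36 and 11.0 in C) and higher in B than in A in both mice with an A library (7.80 and 10.8 rppm in B, 6.42 and 8.46 in A). The log2 changes were -0.28 (SE 0.19) in D against C and 0.16 (SE 0.21) in B against A, a difference of -0.439 that was not tested. The values are low, so they rest on few reads in the shallow libraries.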

How the results depend on the processing

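Directions of the locus medians held under every alternative run. The count called higher in D against A, 23 with all libraries, was 12 to 23 when 1 library was left out (12 without A replicate 3, 17 without A replicate 1), 10 without mouse 3, and 11 of 24 peaks left by a mean of at least 5 rppm. The D against A median log2 change of 0.68 was 0.79 and 0.45 with pseudocounts of 0.25 and 5, and 0.49 with the minimum mean. It was 0.59 after quantile normalization, 0.77 with edgeR, 0.80 with DESeq2 and 0.60 to 0.73 leaving out 1 library. With the mouse as a block, 24 locus peaks were called higher in D against A, where 5667 of all peaks were. That fit called 8 in D against C (3104 of all peaks), 6 in C against B (71) and 0 in B against A (21). In C against B, the 1 call became 0 with a pseudocount of 5, the minimum or quantile normalization, where 0 of all peaks were called higher. It became 6 with edgeR and 7 with DESeq2, where 58 and 75 of all peaks were. Leaving out 1 library of D, C or B gave 0 to 5. The 5 came without D replicate 1, where 22 of all peaks were called higher. Leaving out a D library changes the shared error, not the C against B estimates. The C against B median of 0.37 was 0.22 with a pseudocount of 5 and 0.25 with the minimum. It was 0.34 without mouse 3 and 0.30 to 0.43 leaving out 1 library. In D against C, 6 locus peaks were called, where 2052 of all peaks were called higher. The count was 1 with the minimum (738 of all peaks left) and 3 with only those populations (1272). It was 4 to 6 leaving out 1 library of D, C or B (1407 to 1990). Medians were 0.05 to 0.12 leaving out 1 library and 0.14 without mouse 3. In B against A the count was 0 throughout, with medians of 0.13 with a pseudocount of 5 and 0.16 to 0.30 leaving out 1 library. The D over A ratio of locus sums was 1.62 to 1.77 leaving out 1 library. Near zero, C against B reversed at the 160.3 kb peak (0.01 with all libraries, -0.25 without mouse 3, -0.18 to 0.11 leaving out 1 library) and at the Id2 promoter (-0.0815 to 0.0048). The causes were not tested. Where leaving out an A library leaves 1, it is assumed to vary like the other populations. A mean of 0.268 rppm at 505 kb in A rests on 5 reads, so depth limits what low peaks show.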
